A study of Homo sapiens with 4 samples.

Results

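The genes described here are the 37 entries of the deposited gene table that lie on the mitochondrial genome, of 58740 genes in all. They were chosen by location alone, and comprise 13 mRNAs, 2 rRNAs and 22 tRNAs. RNA of 4 established human cell lines from colon, grown as spheroids, was sequenced without replicates (1 library each). HCEC-1CT is derived from normal colon and was immortalised with CDK4 and telomerase. HCT116 and DLD-1 are colorectal carcinoma lines, and SW620 was established from a lymph node metastasis of a colorectal carcinoma. All 4 are labelled as wild type and epithelial, and all received the same treatment: 7 days of culture in 10% serum on a surface that prevents attachment, in 24-well format. Compact spheroids from 2 plates were picked for each extraction of total RNA. Every series of 4 values below is given in the order HCEC-1CT, HCT116, DLD-1 and SW620.

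Values are FPKM, in which fragment numbers are divided by gene length and by library size. This lets levels of genes of different length be set side by side, though values of very short genes are uncertain. That concerns the tRNAs and also the shortest mRNAs, MT-ATP8, MT-ND4L and MT-ND3 (207, 297 and 346 bases). From the smallest steps in low values, the libraries held about 29500000, 25300000, 23300000 and 28700000 fragments. Over 1000 bases, 1 FPKM then stands for 23.3 to 29.5 fragments, and over the 70 bases of a typical tRNA gene for 1.63 to 2.06. No test was possible without replicates, and the cancer lines are given singly. Differences are log2 ratios after adding a pseudocount of 1 FPKM to both values. Fewer cells with many mitochondria and less mitochondrial RNA per cell cannot be told apart in such bulk samples. Of 6 epithelial markers (EPCAM, CDH1, KRT8, KRT18, KRT19, CLDN4), all were at 1 FPKM or more in each cancer line, with sums of 1552 to 6701 FPKM. In HCEC-1CT the sum was 7.29 FPKM and EPCAM, CDH1 and KRT19 were listed at 0, while all 6 mesenchymal markers (COL1A1, COL1A2, COL3A1, DCN, PDGFRA, VIM) were at 1 FPKM or more and summed to 1383 FPKM, against 13.5, 0.879 and 226 FPKM in HCT116, DLD-1 and SW620. COL1A2 was listed at 0 in all 3 cancer lines. The epithelial label of HCEC-1CT is therefore not borne out by these markers, and their part in the mitochondrial differences was not tested.

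The mitochondrial genome is a small circle that encodes core subunits of the respiratory chain and of ATP synthase, together with the rRNAs and tRNAs that translate them. Each strand is transcribed as a long precursor, from which tRNAs are cut out, releasing the mRNAs and rRNAs between them. All other proteins of the respiratory chain, and all those that copy, transcribe and translate this genome, are encoded in the nucleus. In GENCODE 29 (GRCh38), 28 of the 37 genes lie on the plus strand. The 9 on the minus strand are MT-ND6 and 8 tRNAs. Of the 37, 35 were listed at 1 FPKM or more in at least 1 library; the exceptions were the tRNAs MT-TF and MT-TV.

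Mitochondrial mRNAs were most abundant in HCT116 and mostly least abundant in HCEC-1CT. The 13 mRNAs summed to 7018, 59353, 14393.5 and 19137.5 FPKM, and the whole mitochondrial genome to 1.79%, 10.6%, 3.42% and 3.91% of all FPKM. Each of the 13 had its highest value in HCT116. In HCEC-1CT 11 had their lowest value, the exceptions being MT-ND4 (lowest in DLD-1) and MT-ND6 (lowest in SW620). The shares of all genes highest in HCT116 or lowest in HCEC-1CT were not computed. By their median, genes at 1 FPKM or more in every library were also above HCEC-1CT, with log2 ratios of 0.38, 0.42 and 0.30 in HCT116, DLD-1 and SW620. Scaled to equal library totals (the TPM scale), MT-ND6 was highest in DLD-1 instead, while the other 12 remained highest in HCT116.

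**Figure D1:**
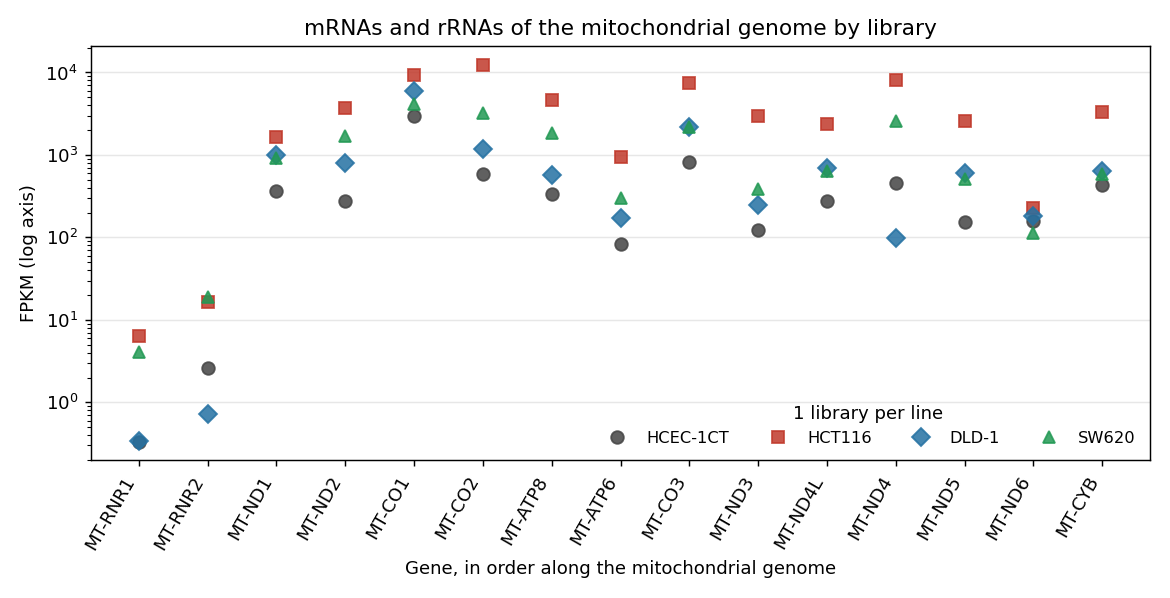
FPKM (log axis) of the 13 mRNAs and 2 rRNAs in genome order, with 1 point per library and no error, since each line has 1 library. HCT116 lies highest for every mRNA, DLD-1 drops to 99.5 FPKM at MT-ND4, and both rRNAs lie under 20 FPKM in all 4 libraries, below every mRNA.

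Against HCEC-1CT, 11 of 13 mRNAs were 4-fold or more higher in HCT116, where 9.04% of the 18637 genes with at least 1 FPKM in any library were. None was 4-fold higher in DLD-1 (9.24% of all genes), and MT-ND2, MT-CO2, MT-ATP8 and MT-ND4 were in SW620 (8.93%). The only 4-fold decrease was MT-ND4 in DLD-1, where 5.57% of all genes were that much lower. No mRNA was 4-fold lower in HCT116 or SW620 (5.01% and 5.49% of all genes). Median log2 ratios of the 13 mRNAs were 3.51, 1.03 and 1.66 in HCT116, DLD-1 and SW620, beside 0.27, 0.33 and 0.21 over all genes tested. None was 4-fold higher or 4-fold lower in all 3 cancer lines, beside 2.68% and 2.99% of all genes. At 2-fold, 6 of 13 were higher and 0 lower in all 3, beside 9.35% and 7.11%. These 3 comparisons share the HCEC-1CT library, so they are not independent of each other. Genes that reached 1 FPKM in every library had median log2 ratios of 0.38, 0.42 and 0.30, a shift that is included in every ratio given here.

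Complex IV, cytochrome c oxidase, reduces oxygen at the end of the chain, and the mitochondrial genome encodes its 3 catalytic-core subunits. MT-CO1 (chrM:5904-7445), the subunit that holds the oxygen-reducing site, stood at 2955, 9199.9, 6029.6 and 4174 FPKM, with log2 ratios of 1.64, 1.03 and 0.50. It was the most abundant mitochondrial mRNA in all libraries but HCT116, and its levels spanned only 3.11-fold between lines. MT-CO2 (chrM:7586-8269), which accepts electrons from cytochrome c, stood at 593, 12397, 1171 and 3253 FPKM, a span of 20.9-fold. It passed MT-CO1 in HCT116 and lay well below it in HCEC-1CT and DLD-1. MT-CO3 (chrM:9207-9990) stood at 815, 7438, 2189 and 2183 FPKM, so that DLD-1 and SW620 had nearly the same level.

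Complex I, NADH dehydrogenase, passes electrons from NADH to ubiquinone and pumps protons through membrane subunits, of which 7 are mitochondrially encoded. MT-ND1 (chrM:3307-4262), which forms part of the ubiquinone site, stood at 369, 1643, 994 and 929 FPKM. MT-ND2 (chrM:4470-5511), a proton-pumping subunit, stood at 279, 3678, 800.3 and 1701 FPKM. DLD-1 and SW620 were close for MT-ND1, while SW620 was the higher for MT-ND2. MT-ND3 (chrM:10059-10404) had the largest log2 ratio in HCT116, 4.59, with levels of 122, 2962, 244 and 388 FPKM. MT-ND5 (chrM:12337-14148), another proton-pumping subunit, stood at 152, 2574, 603 and 504 FPKM, and its log2 ratio of 1.98 was the largest of the 13 in DLD-1.

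Complex III passes electrons on to cytochrome c, and MT-CYB (chrM:14747-15887), cytochrome b, is its only mitochondrially encoded subunit. It stood at 428, 3282, 639 and 593 FPKM, high in HCT116 and within 1 log2 unit of HCEC-1CT in DLD-1 and SW620 (0.58 and 0.47). Complex V is ATP synthase, whose proton channel includes MT-ATP6 and whose membrane stalk includes MT-ATP8. MT-ATP6 (chrM:8527-9207) stood at 83.1, 957, 173 and 302 FPKM and MT-ATP8 (chrM:8366-8572) at 340.4, 4622, 574 and 1820.2 FPKM.

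**Figure D2:**
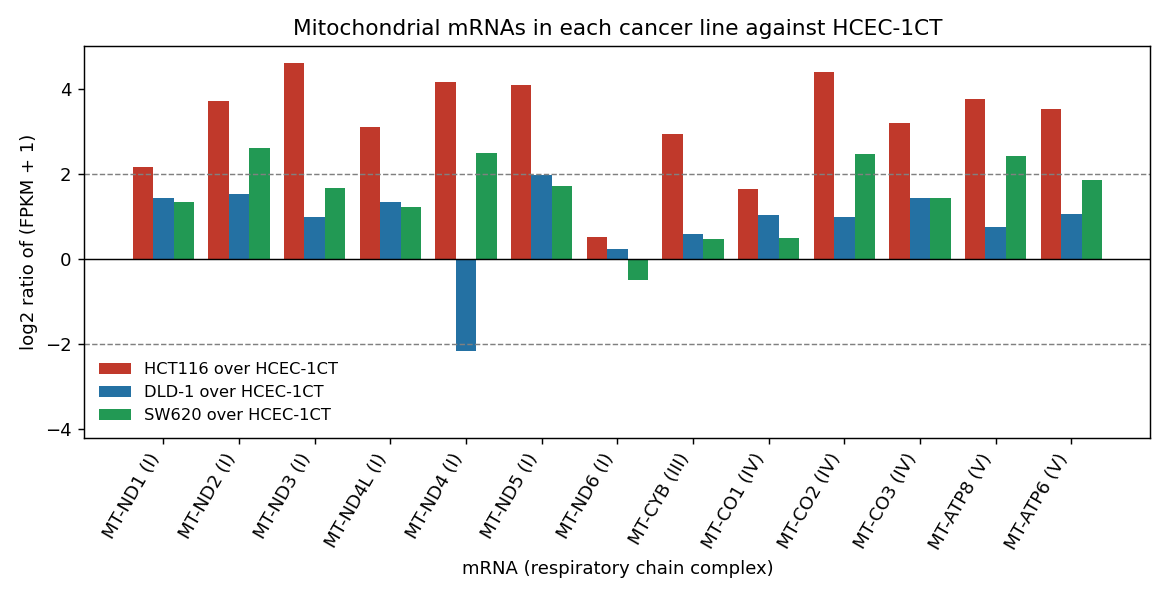
Log2 ratios of FPKM plus 1 for the 13 mRNAs in each cancer line over HCEC-1CT, grouped by respiratory chain complex; dashed lines mark 4-fold. HCT116 passes 4-fold for 11 of 13, the exceptions being MT-CO1 and MT-ND6, and MT-ND4 is the only mRNA past 4-fold downwards, in DLD-1.

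MT-ATP8 and MT-ATP6 sit on a shared mRNA and their reading frames overlap by 46 bases, and MT-ND4L and MT-ND4 are likewise joined, with an overlap of 7 bases. The sequences at these junctions are shown because reads there belong to both genes of a pair, so the authors' counting had to split or assign them. They come from GENCODE 29 transcripts, 5′ to 3′ on the plus strand, with the shared bases in capitals, at chrM:8512-8572, chrM:8527-8587, chrM:10730-10766 and chrM:10760-10796.
MT-ATP8 end: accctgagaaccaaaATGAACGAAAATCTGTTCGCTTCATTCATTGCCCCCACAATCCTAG
MT-ATP6 start: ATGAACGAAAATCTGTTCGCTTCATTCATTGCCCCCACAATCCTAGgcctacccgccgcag
MT-ND4L end: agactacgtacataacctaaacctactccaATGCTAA
MT-ND4 start: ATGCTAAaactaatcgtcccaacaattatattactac

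Although joined on the mRNA, the members of each pair did not have equal FPKM. MT-ATP8 and MT-ND4L are the shorter members, at 207 and 297 bases against 681 and 1378. Values of such short genes are less certain, and the part of gene length in the ratios below was not tested. MT-ATP8 was above MT-ATP6 in every library, by 4.10, 4.83, 3.32 and 6.02-fold, so the direction was the same in all 4 lines. MT-ND4L (chrM:10470-10766), a small membrane subunit of complex I, stood at 274, 2347, 693 and 634 FPKM. MT-ND4, a proton-pumping subunit of complex I annotated at chrM:10760-12137, stood at 451, 8027, 99.5 and 2544 FPKM. The ratio of MT-ND4 to MT-ND4L was 1.65, 3.42, 0.144 and 4.02, so DLD-1 was the only library with less MT-ND4 than MT-ND4L. In DLD-1, MT-ND4 lay between MT-ND4L and MT-ND5 on the genome with a level far under both.

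The deposited MT-ND4 entry differs from the annotation: its locus runs from position 5904 to 15887, and it sums 3 transcripts. The annotated transcript held 402, 7838, 44.9 and 2399 FPKM, or 89.0%, 97.6%, 45.1% and 94.3% of the entry. An assembled transcript from the start of MT-CO1 to the end of MT-ND4 held 35.6, 86.5, 53.0 and 32.0 FPKM. Another, from the start of MT-CO1 to the end of MT-CYB, held 13.9, 102, 1.58 and 113 FPKM. The sources used here do not say how fragments were divided between these transcripts and the genes inside them, so the level of MT-ND4 is less certain than that of its neighbours. On the annotated transcript alone the log2 ratios were 4.28, -3.13 and 2.57, beside 4.15, -2.17 and 2.49 for the whole entry. Joined with MT-ND4L and weighted by length, the pair stood at 419.9, 7020.2, 205 and 2205 FPKM, and its log2 ratio in DLD-1 was -1.03, short of 4-fold. Counting error is small here, since the entry in DLD-1 corresponds to about 3195 fragments over the annotated length.

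**Figure D3:**
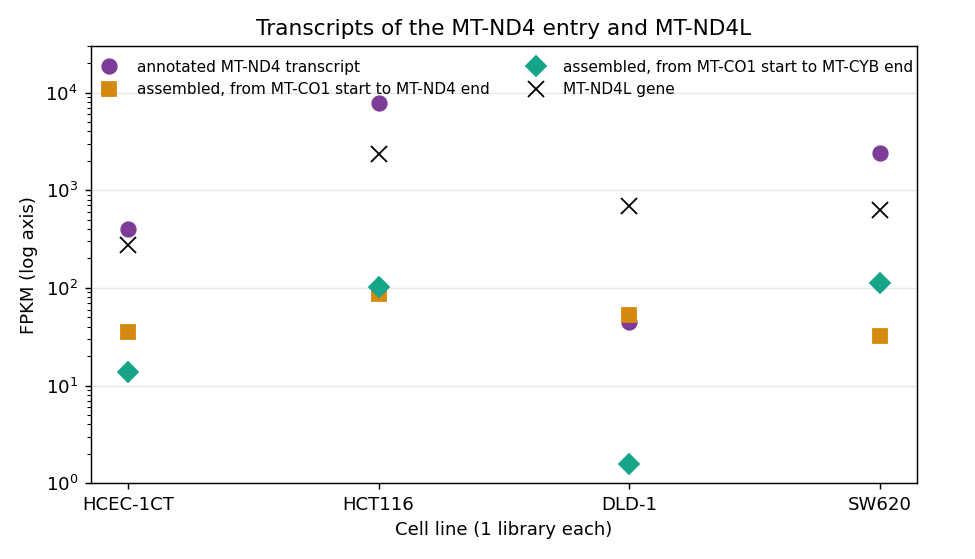
FPKM (log axis) of the 3 transcripts summed in the MT-ND4 entry and of MT-ND4L, 1 point per library. The annotated MT-ND4 transcript lies above MT-ND4L in HCEC-1CT, HCT116 and SW620 and below it in DLD-1, at 44.9 against 693 FPKM.

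MT-ND6, a complex I membrane subunit, is the only mRNA of the minus strand (chrM:14149-14673). As deposited it stood at 157, 226, 184 and 112 FPKM, a span of 2.02-fold, the smallest of the 13. The plus-strand mRNAs had medians of 355, 3479.8, 666 and 1315 FPKM, which is 2.25, 15.4, 3.63 and 11.8 times MT-ND6. Plus-strand levels relative to MT-ND6 were therefore higher in HCT116 and SW620 than in HCEC-1CT and DLD-1. The log2 ratios of MT-ND6 were 0.52, 0.22 and -0.49, and with median-ratio scaling that of DLD-1 was -0.19. Like MT-ND4, the entry is wider than the gene, from position 1 to 14673, and an assembled transcript of that span held 39.9%, 29.2%, 27.2% and 54.4% of it. The annotated transcript alone, a comparison added after seeing the data, stood at 94.6, 160.2, 134 and 51.0 FPKM. Its span of 3.14-fold was slightly above the 3.11-fold of MT-CO1, so the smallest span belongs to the deposited entry only. Against this transcript the plus-strand medians were 3.75, 21.7, 4.99 and 25.8 times as high, with SW620 above HCT116. Strandedness of the libraries is not stated in the labels, and without strand, reads from the plus-strand precursor across MT-ND6 cannot be told apart from MT-ND6 itself. In sequence MT-ND6 also stands apart, with 35.6% G in the mRNA against 6.28% to 16.2% in the other 12.

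The make-up of the mRNA pool does not depend on library scaling. It does depend on the division by gene length, which is less certain for MT-ATP8, MT-ND4L and MT-ND3. For 9 of 13 mRNAs, the shares in HCT116 and SW620 both lay above (6) or both below (3) those in HCEC-1CT and DLD-1, a pairing of libraries noticed in these values. MT-CO3, MT-ND4L, MT-ND5 and MT-CYB did not follow it: MT-ND5, for one, made up 2.17%, 4.34%, 4.19% and 2.63%. MT-CO1 made up 42.1%, 15.5%, 41.9% and 21.8% of the summed FPKM of the 13 mRNAs. MT-CO2 made up 8.45%, 20.9%, 8.14% and 17%, so the ratio of MT-CO1 to MT-CO2 was 4.99, 0.742, 5.15 and 1.28. By complex, complex IV held 62.2%, 48.9%, 65.2% and 50.2%, and complex I 25.7%, 36.2%, 25.1% and 35.6%. The complex I difference rested largely on MT-ND4, which made up 6.43%, 13.5%, 0.691% and 13.3%. With MT-ND4 left out of the pool, a choice made after seeing the data, complex I held 20.6%, 26.2%, 24.6% and 25.7%, so that DLD-1 lay close to HCT116 and SW620. Complex IV then held 66.4%, 56.6%, 65.7% and 57.9%. Complex V held 6.03%, 9.40%, 5.19% and 11.1%, again higher in HCT116 and SW620, while complex III, which is MT-CYB alone, held 6.09%, 5.53%, 4.44% and 3.10%. The 7SL RNA RN7SL1, a nuclear non-coding RNA fixed as a sign of library preparation, was also higher in HCT116 and SW620, at 21015, 48073, 20502 and 43404 FPKM. RN7SL2 was too, at 12780, 30169, 17031 and 24046 FPKM. RN7SK was not, at 31726, 33866, 13909 and 14938 FPKM. The summed histone genes, another such sign, were highest in DLD-1, at 1228, 2466, 8922 and 3698 FPKM. The part of library preparation in these shares was not tested.

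**Figure D4:**
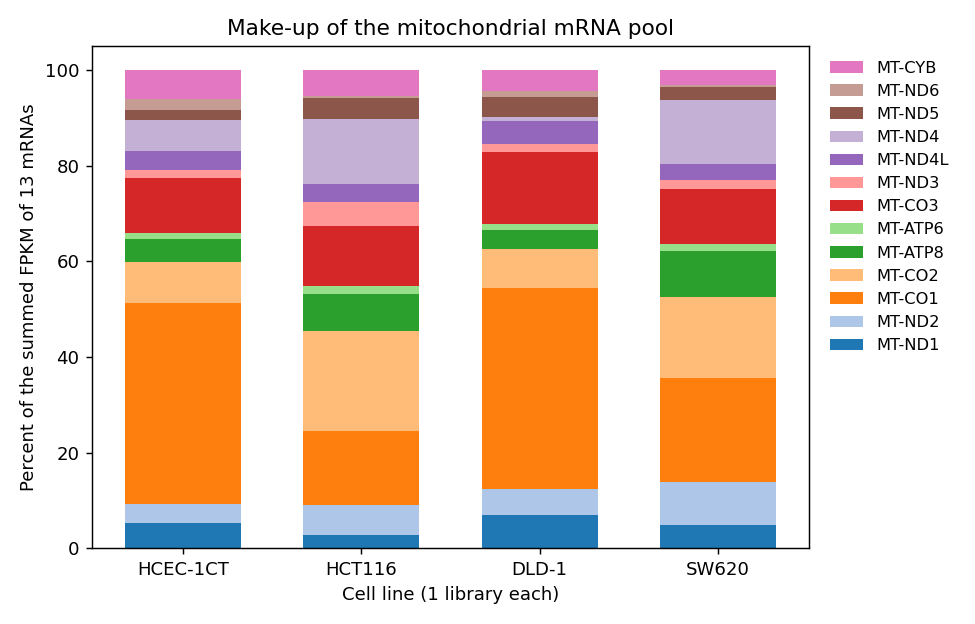
Stacked bars of the percent of summed mRNA FPKM held by each of the 13 mRNAs in genome order, 1 bar per library. MT-CO1 takes 42.1% in HCEC-1CT and 41.9% in DLD-1 but 15.5% in HCT116 and 21.8% in SW620, where MT-CO2 and MT-ND4 take larger shares.

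Between cancer lines, 8 of 13 mRNAs were 4-fold or more apart in HCT116 and DLD-1, all higher in HCT116. Of all genes 9.47% were that far apart, 4.94% being higher in HCT116. Their median log2 ratio was 2.20. With libraries scaled to equal totals the count was 5. HCT116 and SW620 were 4-fold apart for MT-ND3, MT-ND5 and MT-CYB (7.15% of all genes), all higher in HCT116 (3.39%), with a median of 1.66. DLD-1 and SW620 had a median of 0.00, and only MT-ND4 was 4-fold apart (8.97% of all genes), lower in DLD-1 (4.72%) with a log2 ratio of -4.66. Around that median, single mRNAs lay on either side, with log2 ratios of -1.47 for MT-CO2 and 0.53 for MT-CO1.

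The rRNAs build the small (MT-RNR1, 12S) and large (MT-RNR2, 16S) subunits of the mitochondrial ribosome, and in total cellular RNA they are usually more abundant than any mitochondrial mRNA. Here they were at 0.334, 6.45, 0.336 and 4.07 FPKM for MT-RNR1 (chrM:648-1601) and 2.64, 16.6, 0.717 and 18.7 FPKM for MT-RNR2 (chrM:1671-3229). MT-RNR2 thus stood at 0.0892%, 0.180%, 0.0119% and 0.448% of MT-CO1. The labels do not say whether rRNA was removed or poly(A) RNA selected, so these levels were not read as levels in the cells. Both were higher in HCT116 and SW620 than in HCEC-1CT and DLD-1, as were the shares of MT-CO2. MT-RNR1 corresponds to about 9.41 and 7.47 fragments in HCEC-1CT and DLD-1, where counting error is large. MT-RNR2 corresponds to only about 26.0 fragments in DLD-1. MT-TF and MT-TV, the tRNAs that flank MT-RNR1, were the lowest tRNAs in every library but SW620, where MT-TC lay below MT-TF. MT-TF had 0.150, 0.464, 0.127 and 0.598 FPKM and MT-TV was listed at 0 in all libraries. These names were chosen after their values were seen.

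The 22 tRNA genes are 59 to 75 bases long, shorter than usual library fragments, so their FPKM can hold fragments of unprocessed precursor as well as of mature tRNA. Their medians were 8.53, 22.1, 14.2 and 8.69 FPKM and their highest values 85.3, 99.8, 144 and 109 FPKM, with 10, 13, 14 and 11 of 22 at 10 FPKM or more. They made up 4.90%, 0.904%, 3.93% and 1.86% of mitochondrial FPKM. In HCT116 3 of 22 (13.6%) were 4-fold higher (MT-TC, MT-TY and MT-TS1), beside 9.04% of all genes. In DLD-1 there were 0, beside 9.24%, and in SW620 1 (MT-TM), beside 8.93%. The only tRNA 4-fold lower was MT-TC in SW620, where 5.49% of all genes were. The median log2 ratios were 0.31, 0.29 and -0.32, close to those of all genes in HCT116 and DLD-1 and below them in SW620, and unlike the medians of the mRNAs.

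The tRNA sequences shown are those with the highest value in any library, MT-TT in HCEC-1CT and DLD-1, MT-TL1 in HCT116 and MT-TM in SW620, and MT-TC, which varied most. The lowest value of MT-TC, in SW620, corresponds to about 0.416 fragments, so the size of its span is uncertain. All are GENCODE 29 sequences in DNA letters, 5′ to 3′ along the tRNA, with the anticodon in capitals, found between the paired stem bases. The sites are chrM:15888-15953, chrM:3230-3304 and chrM:4402-4469 on the plus strand and chrM:5761-5826 on the minus strand.
MT-TT: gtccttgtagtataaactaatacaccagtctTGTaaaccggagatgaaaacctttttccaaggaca
MT-TL1: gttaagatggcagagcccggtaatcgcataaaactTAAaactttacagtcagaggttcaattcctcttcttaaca
MT-TM: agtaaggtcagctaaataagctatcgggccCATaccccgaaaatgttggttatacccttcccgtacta
MT-TC: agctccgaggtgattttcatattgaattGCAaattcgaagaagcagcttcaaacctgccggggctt

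MT-TL1, the leucine tRNA between MT-RNR2 and MT-ND1, stood at 55.1, 99.8, 113 and 71.9 FPKM. MT-TT, the threonine tRNA after MT-CYB, stood at 85.3, 53.2, 144 and 23.5 FPKM. MT-TD, the aspartate tRNA before MT-CO2, stood at 47.3, 21.3, 82.1 and 14.2 FPKM. Both MT-TT and MT-TD were thus lower in HCT116 and SW620 than in HCEC-1CT and DLD-1, the reverse of MT-CO2. MT-TM, the methionine tRNA before MT-ND2, was level in 3 libraries and higher in SW620, at 25.2, 28.2, 29.5 and 109 FPKM. MT-TI, the isoleucine tRNA after MT-ND1, stood at 10.5, 33.2, 30.4 and 17.9 FPKM.

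Of all 22 tRNAs, 9 were highest in HCT116 and 9 in DLD-1, and the share of all genes highest in each line was not computed. Of the 8 tRNAs on the minus strand, 6 were highest in HCT116. Their medians were 8.53, 29.5, 14.2 and 8.69 FPKM, against 9.07, 14.7, 14.1 and 9.50 FPKM for the 14 on the plus strand. The 4-fold increases in HCT116 all lay on the minus strand: the tyrosine tRNA MT-TY at 6.14, 47.3, 18.9 and 11.5 FPKM, the serine tRNA MT-TS1 at 10.4, 50.1, 19.3 and 10.7 FPKM and MT-TC, the cysteine tRNA, at 8.40, 50.2, 12.5 and 0.219 FPKM. MT-TN, the asparagine tRNA near MT-TC, was also highest in HCT116, at 8.67, 28.4, 9.30 and 6.69 FPKM. In HCEC-1CT, MT-TY, MT-TS1 and MT-TC correspond to only about 11.9, 21.1 and 16.4 fragments. Strandedness is not stated, and without strand, fragments of the plus-strand precursor cannot be told apart from minus-strand tRNAs. The value of MT-TC in SW620 corresponds to about 0.416 fragments, less than 1 whole fragment, while MT-TY beside it corresponds to about 21.9. MT-TY and MT-TC share 1 annotated base. MT-TE, the glutamate tRNA next to MT-ND6, stood at 20.6, 30.6, 16.0 and 11.8 FPKM. MT-TQ and MT-TP, named after their values were seen, had their lowest values in HCT116, at 0.912 and 5.60 FPKM.

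**Figure D5:**
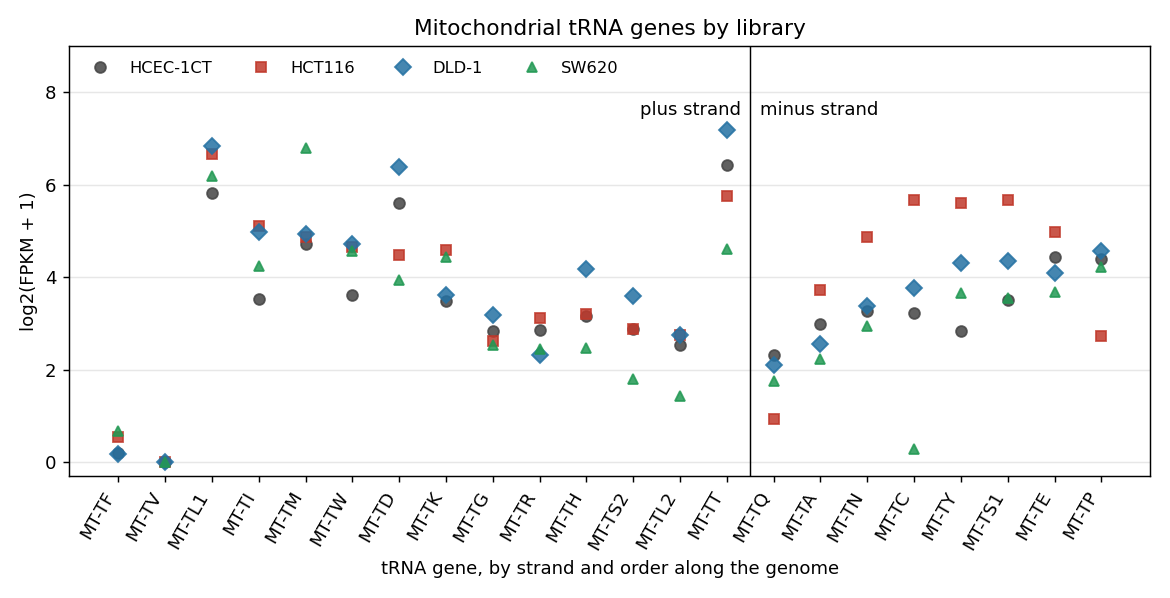
Levels of the 22 tRNA genes as log2(FPKM + 1), by strand and in genome order, 1 point per library. HCT116 lies above the other lines from MT-TA to MT-TE on the minus strand, SW620 is near 0 at MT-TC, and MT-TF and MT-TV are at or near 0 in all 4 libraries.

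Copies of mitochondrial DNA inserted in nuclear chromosomes can take or give reads. The table lists 405 such pseudogenes by name, of which 324 were at 0 in all libraries and 7 reached 1 FPKM in any. MTND2P28 (chr1:629640-630683) stood at 53.4, 424, 169 and 167 FPKM, MTATP6P1 (chr1:633696-634376) at 52.3, 261, 126 and 105 FPKM and MTCO1P12 (chr1:631074-632616) at 58.4, 132, 128 and 63.3 FPKM. Their transcripts were 98.4%, 98.5% and 98.6% identical to MT-ND2, MT-ATP6 and MT-CO1, with identical stretches of up to 266, 141 and 245 bases, so reads that lie within those stretches cannot be told apart. A stretch of 70 bases of MT-ATP6 (chrM:8527-8596) and MTATP6P1 (chr1:633696-633765), from GENCODE 29 and on the plus strand, shows this, with the only differing base in capitals.
MT-ATP6: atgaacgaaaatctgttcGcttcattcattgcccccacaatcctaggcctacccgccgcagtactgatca
MTATP6P1: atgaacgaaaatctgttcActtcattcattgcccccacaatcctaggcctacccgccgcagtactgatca

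All 3 copies were highest in HCT116. MTATP6P1 amounted to 63.0%, 27.3%, 73.1% and 34.8% of MT-ATP6, MTND2P28 to 19.1%, 11.5%, 21.1% and 9.84% of MT-ND2, and MTCO1P12 to 1.97%, 1.44%, 2.12% and 1.52% of MT-CO1. The values of MT-ATP6 and MT-ND2 are therefore the less certain ones, most of all in HCEC-1CT and DLD-1. These are also the libraries with the lower ratios of MT-ATP8 to MT-ATP6, and the part of the copy in that ratio was not tested.

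By their medians, lists of nuclear genes that serve the mitochondrial genome lay closer to HCEC-1CT than the mRNAs it encodes. Nuclear-encoded subunits of complex I had median log2 ratios of 1.17, 0.59 and 1.26, beside 3.71, 1.34 and 1.66 for the 7 mitochondrial ones. For complex IV they were 1.38, 0.90 and 1.33 beside 3.19, 1.03 and 1.42, and for complex V 1.15, 0.70 and 0.99 beside 3.63, 0.90 and 2.13. For complex III they were 1.40, 0.78 and 1.25, beside 2.94, 0.58 and 0.47 for MT-CYB. In HCT116 the medians of the mitochondrial subunits, or MT-CYB for complex III, thus lay above the nuclear medians in all 4 complexes. Single genes overlapped: MT-ND6, at 0.52, lay below the nuclear complex I median, and nuclear UQCRB, at 3.20, above MT-CYB. In DLD-1 and SW620 MT-CYB lay below the median of its nuclear partners. Of the 37 nuclear complex I genes, 24, 8 and 28 were 2-fold or more higher in HCT116, DLD-1 and SW620, beside 26.9%, 25.9% and 24.8% of all genes. Of 11 complex IV genes the counts were 7, 5 and 9, of 9 complex III genes 6, 4 and 6, and of 15 complex V genes 8, 3 and 7. In DLD-1 the shares of complex I and V genes were 21.6% and 20%, below the 25.9% of all genes. Those of complex III and IV genes were 44.4% and 45.5%, above it. Of all genes 13.1%, 12.9% and 14.1% were 2-fold lower, and of these subunit genes only NDUFV2 of complex I in HCT116, at 122, 58.5, 69.7 and 74.1 FPKM. The 78 mitochondrial ribosomal protein genes had medians of 0.97, 0.75 and 1.12. Of them 37, 21 and 42 (47.4%, 26.9% and 53.8%) were 2-fold or more higher, and MRPL10 and MRPS2 were lower in DLD-1. The share higher in DLD-1 was near the 25.9% of all genes. UQCRB, NDUFV2, MRPL10 and MRPS2 are named after their values were seen. In this list MRPS6, a small-subunit protein, set SW620 apart, at 22.2, 38.9, 28.3 and 170.4 FPKM.

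The 9 genes for mitochondrial transcription had medians of 0.41, 0.42 and 0.19, near those of all genes. POLRMT, the mitochondrial RNA polymerase, stood at 9.21, 55.4, 15.2 and 27.7 FPKM, the same order of libraries as the summed mRNAs. A link between the levels was not tested. That order was not particular to POLRMT, since TWNK and TOP1MT, given below, shared it. TFAM, which packages the genome and starts transcription, did not show that order, at 11.96, 8.12, 11.2 and 17.1 FPKM. TFB2M, which opens the promoter, stood at 10.8, 14.6, 8.07 and 5.17 FPKM and the elongation factor TEFM at 3.08, 2.97, 4.97 and 3.64 FPKM. MTERF1, a termination factor named after its value was seen, was listed at 3.83, 3.74, 0 and 3.90 FPKM. Of this list 2, 1 and 2 genes (22.2%, 11.1% and 22.2%) were 2-fold or more higher in HCT116, DLD-1 and SW620, below the 26.9%, 25.9% and 24.8% of all genes.

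Of 14 genes for genome upkeep, 6, 3 and 4 (42.9%, 21.4% and 28.6%) were 2-fold or more higher in HCT116, DLD-1 and SW620 and 0 lower. Of all genes 26.9%, 25.9% and 24.8% were higher and 13.1%, 12.9% and 14.1% lower, so the DLD-1 and SW620 shares were near the background. The 4-fold members, named after their values were seen, were the helicase TWNK (2.81, 18.0, 3.96 and 4.26 FPKM) and the topoisomerase TOP1MT (5.28, 27.5, 7.74 and 8.56 FPKM) in HCT116 and the nuclease DNA2 (1.011, 3.30, 7.498 and 6.34 FPKM) in DLD-1. Of 16 RNA processing and modification genes 4, 5 and 2 (25%, 31.2% and 12.5%) were higher at 2-fold and 0 lower. Of 14 genes for mRNA stability, polyadenylation and decay 3, 3 and 1 (21.4%, 21.4% and 7.14%) were higher and 0 lower. These shares were near or below those of all genes. LRPPRC, which stabilises mitochondrial mRNAs, stood at 23.3, 58.0, 66.2 and 27.8 FPKM, and its partner SLIRP at 4.70, 9.07, 8.52 and 10.1 FPKM. PNPT1, the nuclease that degrades mitochondrial RNA, was highest in DLD-1, at 3.83, 10.9, 19.8 and 7.60 FPKM. Of 9 translation factors 3, 3 and 2 (33.3%, 33.3% and 22.2%) were higher and 0 lower, again near the background. Among 7 regulators of mitochondrial biogenesis the medians were -0.08, -0.04 and 0.00, with 1, 0 and 1 (14.3%, 0% and 14.3%) higher at 2-fold and 0 lower. The coactivator PPARGC1A was at 0.918, 0.0563, 0 and 1.04 FPKM, at or near 0 in HCT116 and DLD-1. PPARGC1B, named after its value was seen, was the only member past 4-fold, higher in HCT116. It stood at 0.0493, 3.34, 0.880 and 0.482 FPKM.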

How the data were processed

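The measurements are RNA-seq of 4 spheroid cultures, 1 library per line. The authors deposited FPKM values per gene and per transcript. The tools HISAT2 and FastQC and the build hg38 are named, per the submitters' processing notes, with no versions. The quantifier, annotation release, RNA selection, strandedness and filters: not given in the sources used here. In both tables, a single column matches no sample and was not used. Gene type, strand, length and sequence came from GENCODE 29, which matched 58275 gene IDs; 35 of 37 mitochondrial loci had equal coordinates. Members were all rows on MT. The members and lists were chosen with earlier results of these data known.

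Log2 ratios used a pseudocount of 1 FPKM, a limit of 4-fold (2-fold for nuclear lists) and genes with at least 1 FPKM in any library. A low gene's change is understated on this scale. Mitochondrial gene values equalled the sum of their transcripts to within 0.000565 FPKM. Fragment numbers are estimates from the most frequent small step of FPKM times length in single-transcript genes. The fold calls were tested on simulated data that held counting noise only, so variation between cultures or preparations was not covered. The 13 mRNAs and 2 rRNAs were all named, tRNAs at 10 FPKM or more (10 at most, by highest value) and nuclear copies at 50 FPKM or more. Nuclear genes were named where 4-fold from HCEC-1CT in the same direction in all 3 cancer lines (none were) or where they set a line 4-fold apart from each of the others with at least 10 FPKM, plus POLRMT, TFAM, TFB2M, TEFM, LRPPRC, SLIRP, PNPT1 and PPARGC1A. Other pseudocounts, scalings, limits and joined overlapping genes were tried. Python 3.11.15, pandas 2.3.3 and Biopython 1.88 were used.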

Additional observations from a re-analysis of the deposited data

Results flagged for a closer look

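MT-ND4 was more than 4-fold above HCEC-1CT in 2 cancer lines and more than 4-fold below it in the other, with a log2 ratio of 4.15 for HCT116, of -2.17 for DLD-1 and of 2.49 for SW620. The tRNA MT-TC also went opposite ways, being 2.44 for HCT116, 0.52 for DLD-1 and -2.95 for SW620 on the log2 scale. MT-TC corresponds to only about 0.416 fragments in SW620 and 16.4 in HCEC-1CT, so counting error is large for its ratios. With 1 library per line neither difference between lines was tested, and all ratios share the HCEC-1CT library.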

How the results depend on the processing

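Log2 ratios of the 13 mRNAs were recomputed under 5 settings. These were pseudocounts of 0.1 and 5 FPKM, median-ratio scaling, scaling to nuclear protein-coding FPKM and the TPM scale. A pseudocount added to both values cannot change a sign. Each scaling moves all ratios of a line by nearly the same amount, at most 0.46. That 194 of 195 kept their sign therefore says little. MT-ND6 in DLD-1 turned to -0.19 with median-ratio scaling. With median-ratio scaling or on the TPM scale, 10 mRNAs in place of 11 were 4-fold higher in HCT116 than in HCEC-1CT. The median log2 ratio of the 13 mRNAs in DLD-1 was 0.62 with median-ratio scaling, in place of 1.03. On the TPM scale 5 mRNAs in place of 8 were 4-fold apart in HCT116 and DLD-1. With a limit of 2-fold, 7 mRNAs were higher in DLD-1 and 10 in SW620 than in HCEC-1CT, beside 25.9% and 24.8% of all genes. At that limit 12 lay apart in HCT116 and SW620 and 4 in DLD-1 and SW620. The share of all genes 2-fold apart between cancer lines was not computed. With overlapping genes joined, 0 were 4-fold lower in DLD-1. The mitochondrial share depends on what is summed, though HCT116 stayed highest and HCEC-1CT lowest in each setting. It was 0.972%, 6.86%, 1.95% and 2.33% weighted by gene length and 1.76%, 10.8%, 3.43% and 4.03% over genes of 200 bases or more. Over protein-coding genes only it was 2.44%, 16.4%, 4.65% and 5.84%, and without 7SL and 7SK 2.13%, 13.3%, 3.88% and 4.72%. No replicate could be left out, and no paired analysis was possible because each line has 1 library. Depth limits the tRNAs, MT-RNR1 and, in DLD-1, MT-RNR2, not the mRNAs.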
